A study of Andrographis paniculata with 12 samples.

Results

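The genes described here are 6 assembled leaf genes of Andrographis paniculata whose database hits are inhibitors of proteases, most of them of the Kunitz type. They are a trypsin inhibitor (TR34236|c2_g2), a factor Xa inhibitor (TR83819|c4_g1), an amylase/subtilisin inhibitor (TR83819|c4_g2), 2 hits to sporamin A (TR45313|c4_g1 and TR45313|c4_g2) and a glutamyl endopeptidase inhibitor (TR52219|c0_g1). They make up 6 of 32064 assembled genes and were listed by name with their levels over the time course already known. They were thus chosen by their measured levels at all 4 times, and what follows is a description with no test. All 6 reached a level of 1 or above at some time, the filter that 29399 genes passed. For TR45313|c4_g2 and TR52219|c0_g1 this held through the treated leaves alone, since both were under 1 at 0 h.

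Andrographis paniculata is a medicinal herb that makes bitter diterpene lactones, and its leaves were treated with methyl jasmonate (MeJA), the volatile ester of the wound hormone jasmonic acid. The groups are leaves at 0 h (T0), 12 h (T12), 24 h (T24) and 48 h (T48) of the treatment, each labelled with 3 biological replicates, 12 samples in all. The table used here holds 1 mean level per assembled gene and time, already averaged over the replicates, so no value has an SD, a replicate number or a known read depth. No leaves left without MeJA at 12, 24 or 48 h were analysed here, so hours of MeJA cannot be told apart from the age of the leaf after the start or, at 12 h, from the hour of the day. The sources used here do not give the dose of MeJA, the cultivar or the age of the plants.

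Kunitz-type inhibitors are small, compact plant proteins that block serine proteases such as trypsin by offering a loop that sits in the enzyme's active site like a substrate. Plants store them in seeds and tubers and make them in leaves after wounding, where they slow protein digestion in the gut of chewing insects. In the jasmonate pathway, the active hormone binds the receptor subunit COI1, JAZ repressors (named TIFY in the databases) are destroyed, and transcription factors of the MYC2 type are released to act on defence genes. In tomato, genes of protease inhibitors are among the classical late targets of this pathway.

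The annotation places 5 of the 6 genes in 1 protein family. Their predicted proteins carry the Pfam domain Kunitz_legume, which 10 of the 32064 assembled genes have, so that these genes are 5 of the 10. The trypsin inhibitor hit is to BvTI of the legume tree Bauhinia variegata and rests on the predicted protein alone, with no hit of the transcript itself listed. The factor Xa inhibitor hit is to BuXI of Bauhinia ungulata, an inhibitor of the blood clotting protease factor Xa and of trypsin. The amylase/subtilisin inhibitor hit is to the wheat protein, which in cereals acts on both alpha-amylase and bacterial subtilisin. Sporamin A is the main storage protein of the sweet potato root and also inhibits trypsin. The glutamyl endopeptidase inhibitor hit is to a bitter gourd protein of the potato inhibitor I family, which is not related in fold to the Kunitz type. TR52219|c0_g1 has no predicted protein in the table and so no domain assignment.

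A signal peptide, which sends a protein into the secretory pathway, was listed for 4 of the 5 Kunitz genes. In comparison, 7.76% of the 20430 assembled genes with a predicted protein had one listed, as did 3 of the 5 other genes with the Kunitz_legume domain. The predicted signal covered residues 1 to 20 in the factor Xa inhibitor, with a score of 0.874, and in both sporamin A hits, with a score of 0.913. It covered residues 1 to 21 in the amylase/subtilisin inhibitor, with a score of 0.908. None was listed for the trypsin inhibitor TR34236|c2_g2. The 6 genes lie on 4 assembly components (the part of the name before the bar), so the factor Xa and amylase/subtilisin hits share a component, as do the sporamin A hits. How reads were split between such neighbours is not given in the sources used here, and the single values of each pair are uncertain for that reason.

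The column sums and the leaf markers differed over the time course, and the leaf label held at 0 h. The column sums were 866243, 973347, 965390 and 932776 at 0, 12, 24 and 48 h. The 38 leaf marker genes (Rubisco small chain, Rubisco activase and chlorophyll a-b binding proteins) had a summed level of 64604 at 0 h and then 3809, 18701 and 23318 at 12, 24 and 48 h. Of the 36 that reached a level of 1, 34 were lower at 12 h by 2-fold or more. Markers of flower and root, 1 gene each, stayed under 3 at every time. Fewer cells of a type and less RNA per cell cannot be told apart in bulk leaves. The part of these differences in the values below was not tested.

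The trypsin inhibitor TR34236|c2_g2 had a level of 17.0 at 0 h and then 7234, 22771 and 52772 at 12, 24 and 48 h, in the authors' normalised units. Each later time was above the one before it. Its level was 427-fold that at 0 h by 12 h, 1343-fold by 24 h and 3112-fold by 48 h. On the log2(level + 1) scale, which shrinks differences of genes at low levels, its differences from 0 h were 8.65, 10.31 and 11.52. At 24 h and at 48 h this difference ranked 1 among the 29399 genes.

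The factor Xa inhibitor TR83819|c4_g1 had a level of 16.3 at 0 h and then 11976, 14436 and 40279 at 12, 24 and 48 h. It was nearly level between 12 and 24 h, with a ratio of 1.21, and higher again at 48 h, at 2.79 times the level at 24 h. Its differences in log2(level + 1) from 0 h were 9.44, 9.71 and 11.19, and it ranked 2 among all genes at 24 h and at 48 h. At 48 h its level was 2476-fold that at 0 h.

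The amylase/subtilisin inhibitor TR83819|c4_g2, on the same component, had a level of 15.4 at 0 h and then 656, 1742 and 2219 at 12, 24 and 48 h. It was also highest at 48 h, and its differences from 0 h were smaller, at 5.33, 6.73 and 7.08 in log2(level + 1). As ratios of the levels themselves, the later times were 42.7-fold, 113-fold and 144-fold that at 0 h. In the order of all differences from 0 h it ranked 136 at 12 h, 31 at 24 h and 21 at 48 h.

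The sporamin A hit TR45313|c4_g1 had a level of 6.76 at 0 h and then 11365, 4643 and 2484 at 12, 24 and 48 h. It was highest at 12 h and lower at each time after that. Its difference from 0 h at 12 h, 10.52 in log2(level + 1) or 1682-fold in level, ranked 1 among the 29399 genes. The difference was 9.23 at 24 h and 8.32 at 48 h, where the level was 368-fold that at 0 h and 0.219 of that at 12 h.

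The other sporamin A hit, TR45313|c4_g2, had a level of 0.00300 at 0 h and then 1054, 236 and 53.3 at 12, 24 and 48 h. It had the same order of times as its neighbour and a steeper decline, with a level at 48 h that was 0.0506 of that at 12 h. The level at 0 h stands for a sum of 0.009 over the 3 replicates, so no fold against 0 h is given. Its difference of 10.04 in log2(level + 1) at 12 h, which ranked 2, is set largely by the added 1. The differences were 7.89 at 24 h and 5.76 at 48 h.

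The glutamyl endopeptidase inhibitor TR52219|c0_g1 had a level of 0.572 at 0 h and then 536, 504 and 242 at 12, 24 and 48 h. It was about equal at 12 and 24 h, with a ratio of 0.941, and lower at 48 h. Its differences from 0 h were 8.42, 8.33 and 7.27 in log2(level + 1), with ranks of 13, 10 and 17 among all genes. In a second piece of the same component with the same hit, TR52219|c0_g2, also named after its values were seen, the levels were 0.0687, 5.38, 4.39 and 1.25, also highest at 12 h and lower at 48 h.

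**Figure D1:**
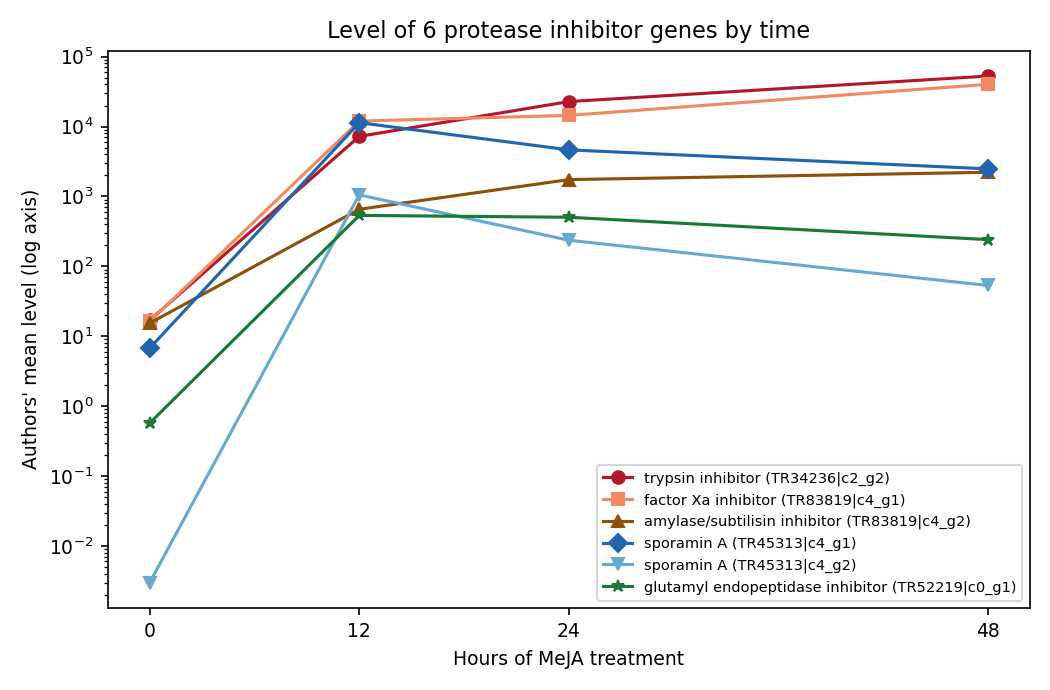
Authors' mean level (log axis) of each of the 6 genes at 0, 12, 24 and 48 h of MeJA, 1 point per time with no error since the table holds means. The genes start between 0.00300 and 17.0, all lie at 536 or above at 12 h, and then part, with the trypsin inhibitor at 52772 and the sporamin A hit TR45313|c4_g2 at 53.3 at 48 h.

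Set against 0 h, all 6 genes were higher by 2-fold or more at 12, 24 and 48 h. Over all 29399 genes, the share higher by that much was 15.0% at 12 h, 13.4% at 24 h and 12.2% at 48 h, and the share lower was 17.7%, 16.9% and 19.6%. The values chose the genes, so nothing is read from the count or from the medians that follow. The 3 comparisons share the leaves at 0 h. The median difference of the 6 genes in log2(level + 1) was 9.05 at 12 h, 8.78 at 24 h and 7.80 at 48 h, beside medians of 0.06, 0.01 and -0.09 over all genes.

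**Figure D2:**
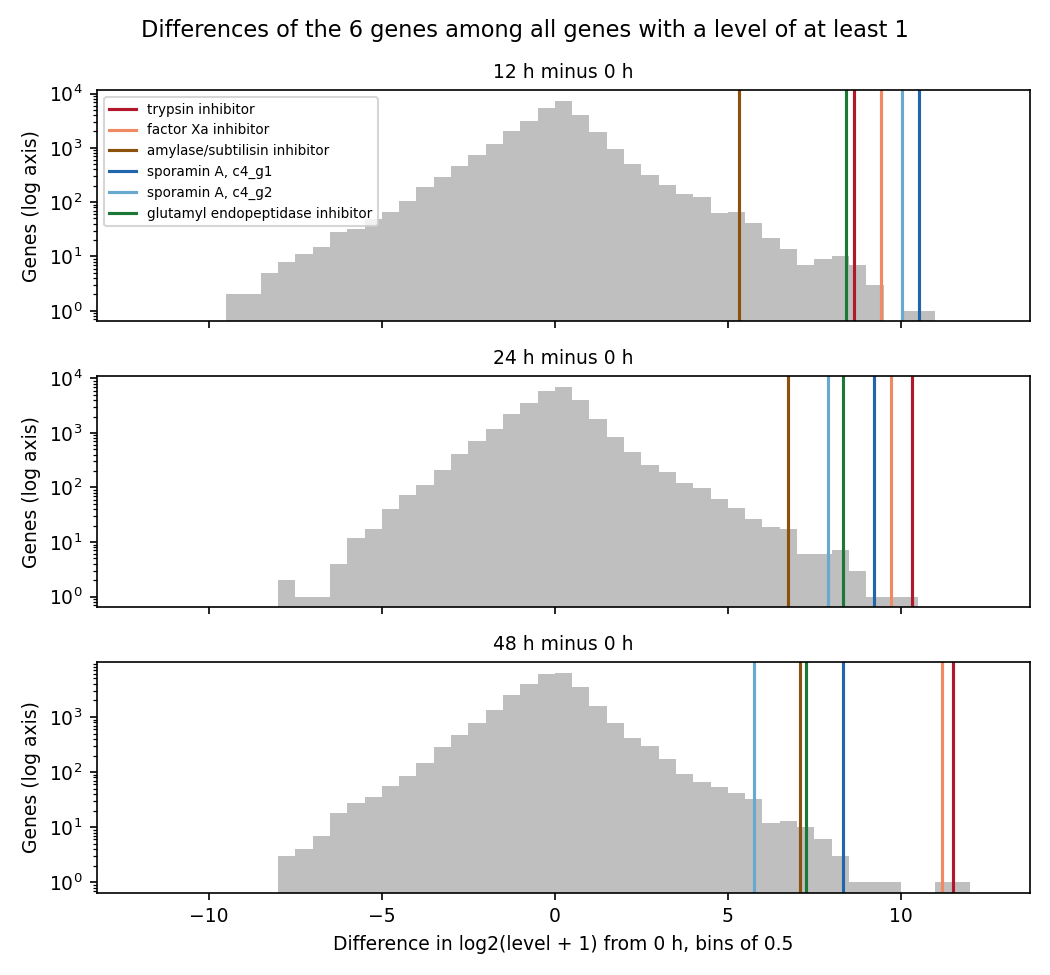
Number of genes (log axis) by difference in log2(level + 1) from 0 h, in bins of 0.5, for the 29399 genes, at 12 h (top), 24 h (middle) and 48 h (bottom), with a coloured line at each of the 6 genes. The lines lie in the upper tail at each time, with the sporamin A hit TR45313|c4_g1 at the far right at 12 h (10.52) and the trypsin inhibitor there at 24 h (10.31) and 48 h (11.52).

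After 12 h the genes went separate ways. From 12 to 24 h the trypsin inhibitor and the amylase/subtilisin inhibitor were higher, by 1.65 and 1.41 in log2(level + 1), and the sporamin A hits were lower, with differences of -1.29 for TR45313|c4_g1 and -2.15 for TR45313|c4_g2. The factor Xa inhibitor (0.27) and the glutamyl endopeptidase inhibitor (-0.09) differed by less than 2-fold. Over all genes, 10.6% were higher and 11.1% lower in this step.

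From 24 to 48 h the trypsin inhibitor (1.21) and the factor Xa inhibitor (1.48) were higher by 2-fold or more. The sporamin A hit TR45313|c4_g2 (-2.13) and the glutamyl endopeptidase inhibitor (-1.06) were lower. The amylase/subtilisin inhibitor (0.35) and the sporamin A hit TR45313|c4_g1 (-0.90) stayed under 2-fold. This step moved fewer genes, with 2.36% of all genes higher and 4.50% lower, that is 694 and 1324 genes. With median-of-ratios scaling, which sets the median gene to the same level at each time, these were 864 and 1044, and the glutamyl endopeptidase inhibitor was under 2-fold at -0.92.

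Over the whole span from 12 to 48 h, the list split evenly into 3 higher and 3 lower, each past 2-fold. Those higher were the trypsin inhibitor (2.87), the amylase/subtilisin inhibitor (1.76) and the factor Xa inhibitor (1.75). Those lower were the sporamin A hits, at -2.19 for TR45313|c4_g1 and -4.28 for TR45313|c4_g2, and the glutamyl endopeptidase inhibitor, at -1.15. The last was at -0.95 with median-of-ratios scaling and so not past 2-fold there. In all, 9.93% of genes were higher and 15.5% lower in this comparison. In the order of these differences the sporamin A hit TR45313|c4_g2 ranked 29345 of 29399, near the lowest of all genes, and the trypsin inhibitor ranked 424.

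**Figure D3:**
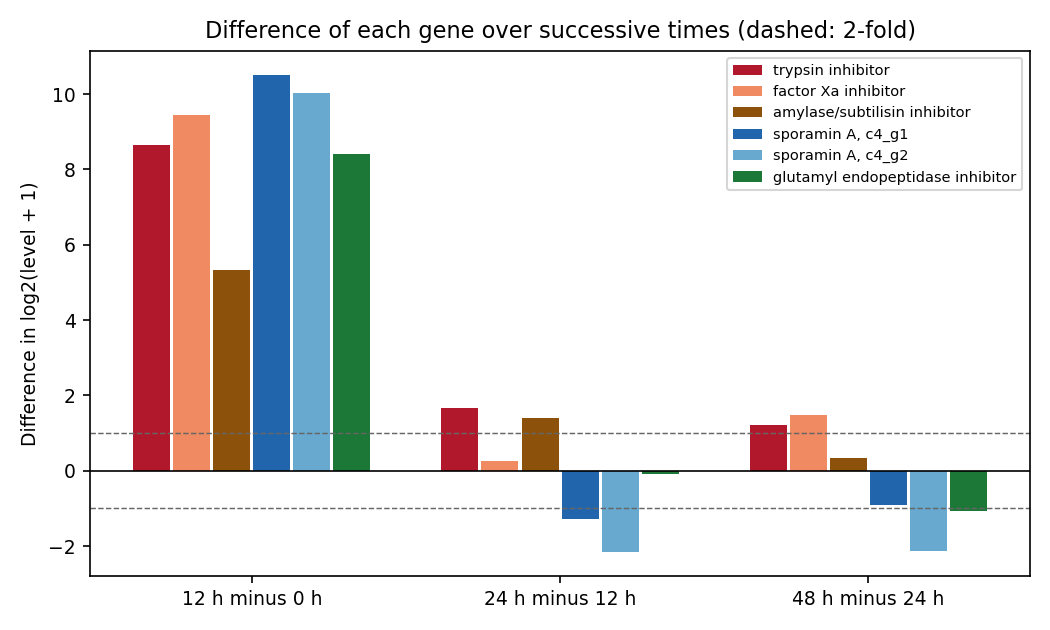
Difference in log2(level + 1) of each of the 6 genes over the successive times, from 0 to 12 h, 12 to 24 h and 24 to 48 h, with dashed lines at 2-fold. All bars of the first step lie between 5.33 and 10.52, and in the later steps the trypsin, factor Xa and amylase/subtilisin inhibitors lie above 0 and the sporamin A hits and the glutamyl endopeptidase inhibitor below it.

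The neighbours on a component did not keep 1 ratio over time. The factor Xa inhibitor stood at 1.06 times the amylase/subtilisin inhibitor at 0 h, at 18.3 times at 12 h, 8.29 times at 24 h and 18.2 times at 48 h. The sporamin A hit TR45313|c4_g1 stood at 10.8 times TR45313|c4_g2 at 12 h, 19.6 times at 24 h and 46.6 times at 48 h. Whether the levels are corrected for transcript length is not given in the sources used here, so these ratios are read only by how they differ between times. The trypsin inhibitor and the factor Xa inhibitor, on separate components, stood at 1.04, 0.604, 1.58 and 1.31 to each other over the 4 times.

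Together the 6 genes took 0.00646% of the column sum at 0 h and then 3.37%, 4.59% and 10.5% at 12, 24 and 48 h. The 3 genes that were highest at 48 h account for most of the later share, at 2.04%, 4.03% and 10.2% at 12, 24 and 48 h. The 3 that were highest at 12 h took 1.33%, 0.558% and 0.298%. At 48 h the trypsin inhibitor alone took 5.66% and the factor Xa inhibitor 4.32% of the column sum. On the authors' scale they ranked 2 and 3 of 32064 by level at that time, after ranks of 7210 and 7450 at 0 h, and only TR44405|c11_g2, which lacks any database hit and was named after its values were seen, ranked above them at 53574. The order between genes and these shares could differ if the levels were not corrected for transcript length.

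The other 5 genes with the Kunitz_legume domain had smaller differences from 0 h. A miraculin hit, TR44291|c4_g3, had a level of 81.2 at 0 h and then 707, 1269 and 1725 at 12, 24 and 48 h, with its times in the same order as those of the trypsin inhibitor. Miraculin is the taste-modifying protein of the miracle fruit and has the Kunitz fold. A second factor Xa inhibitor hit, TR69780|c0_g1, was at 59.4, 229, 235 and 159, with differences from 0 h of 1.93, 1.96 and 1.41 in log2(level + 1). The hit TR36699|c0_g1, to a 21 kDa seed protein of cocoa, was at 21.9, 50.2, 35.4 and 30.3.

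The remaining Kunitz genes were below their 0 h levels at 24 and 48 h. A second hit to the cocoa seed protein, TR18174|c0_g1, had a level of 629 at 0 h and then 641, 242 and 72.8 at 12, 24 and 48 h, a difference of -3.10 in log2(level + 1) at 48 h. A miraculin hit, TR27840|c0_g1, was at 12.1, 3.79, 2.73 and 7.01, with its lowest level at 24 h. The hits to the cocoa protein were found by their domain and not by the name patterns, and were chosen after their values were seen. Among these 5 genes, 3 were higher and 1 lower at 12 h, 2 higher and 2 lower at 24 h, and 2 higher and 1 lower at 48 h. Over all genes, 15.0% were higher and 17.7% lower at 12 h, 13.4% and 16.9% at 24 h, and 12.2% and 19.6% at 48 h.

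The makeup of the family differed between the leaves at 0 h and those at the later times. Of the summed level of the 10 Kunitz genes, which was 859.5 at 0 h and 99802 at 48 h, the cocoa seed protein hit TR18174|c0_g1 made up 73.2% at 0 h and 0.0729% at 48 h. The 5 genes of the list made up 6.44% at 0 h and then 95.2%, 96.1% and 98.0% at 12, 24 and 48 h. The sporamin A hit TR45313|c4_g1 made up 33.5% at 12 h and 2.49% at 48 h, and the trypsin inhibitor 21.3% and 52.9%. These shares add levels of different genes and hold on the authors' scale only. The 5 genes were listed with their levels known, which favours a high share for them at the later times.

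**Figure D4:**
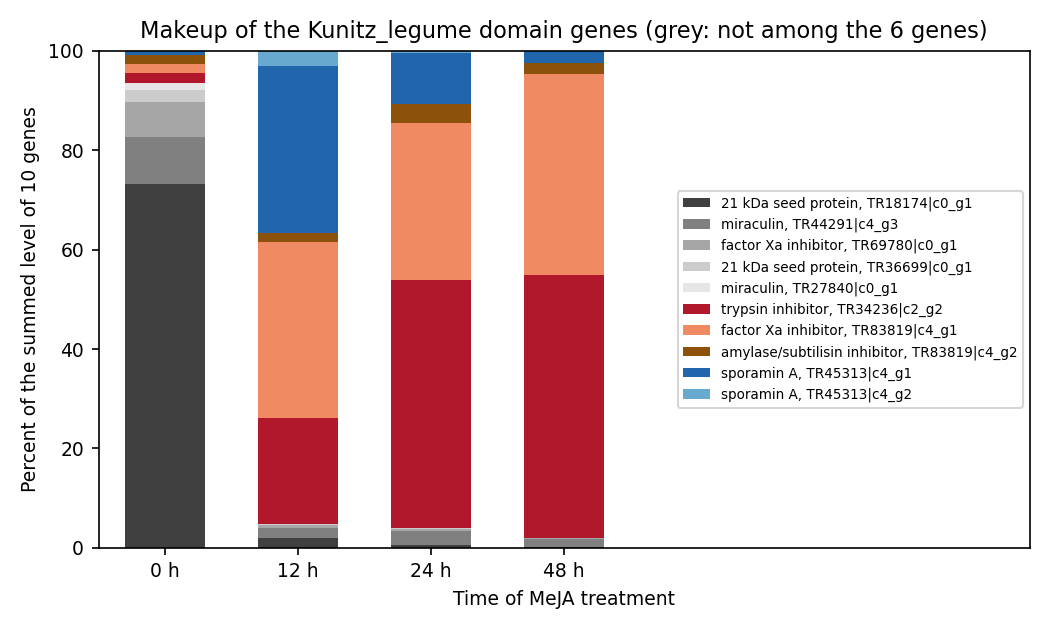
Share of the summed level of the 10 genes with a Kunitz_legume domain at each time, in percent, with the 5 listed genes in colour and the 5 others in grey. The dark grey part, the cocoa seed protein hit TR18174|c0_g1, fills 73.2% of the bar at 0 h, and the listed genes fill 95.2% or more of the bars at 12, 24 and 48 h.

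Beside the 6 genes, 18 assembled genes matched the name patterns of protease inhibitors, and 17 of them reached a level of 1. They include 4 further Kunitz-type names, 3 of which are among the domain genes above, and 3 further names of the potato inhibitor I family. Of these 17, 6 were higher and 4 lower at 12 h, 8 higher and 2 lower at 24 h, and 7 higher and 2 lower at 48 h, beside 15.0% higher and 17.7% lower of all genes at 12 h, 13.4% and 16.9% at 24 h, and 12.2% and 19.6% at 48 h. Their median differences from 0 h in log2(level + 1) were 0.21, 0.56 and 0.35, where all genes had 0.06, 0.01 and -0.09. No gene carried the name of a Bowman-Birk inhibitor or of a potato inhibitor II.

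Cystatins, which block papain-like cysteine proteases, were 7 of these genes, and their summed level was 543, 448, 946 and 702 over the time course. The cystatin TR34075|c0_g2 had a level of 13.2 at 0 h and then 61.4, 54.9 and 48.2 at 12, 24 and 48 h. The cystatin TR27652|c1_g2 was at 40.8, 6.60, 223 and 204, lowest at 12 h and above its 0 h level at 24 and 48 h. Its neighbour TR27652|c1_g4 was at 281, 115, 331 and 169. In the cystatins TR74606|c0_g1 and TR39972|c0_g2 the levels were 35.1, 64.7, 83.0 and 61.0, and 171, 198, 252 and 218.

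Serpins trap a protease in a covalent complex, and the 1 serpin hit, TR63190|c2_g1, was at 34.8, 86.7, 87.4 and 74.4. A hit to an inter-alpha-trypsin inhibitor heavy chain, TR57953|c0_g1, was at 26.3, 63.0, 93.4 and 104. Its name comes from an animal plasma protein, and the table lists a von Willebrand factor type domain for it and none of an inhibitor. The potato inhibitor I names apart from TR52219|c0_g1 were 3 genes that stayed under 6 at every time. A miraculin hit with no Kunitz domain listed, TR17954|c0_g1, chosen after its values were seen, was at 3.66, 0.426, 0.785 and 1.21.

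**Figure D5:**
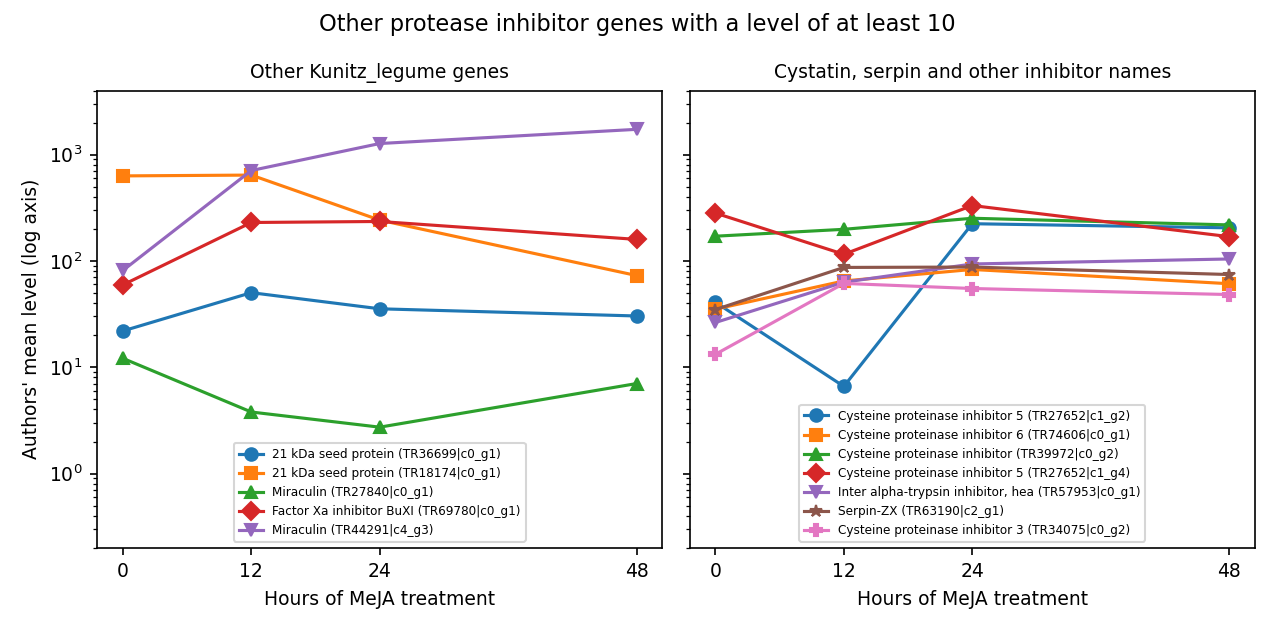
Authors' mean level (log axis) over the 4 times of the other inhibitor genes that reached a level of 10, with the Kunitz_legume genes on the left and the cystatin, serpin and inter-alpha-trypsin inhibitor names on the right. The miraculin hit TR44291|c4_g3 reaches 1725 at 48 h, the cocoa seed protein hit TR18174|c0_g1 goes from 629 to 72.8, and the cystatin TR27652|c1_g2 dips to 6.60 at 12 h.

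Leaf proteases were counted by family. Which of them the 6 inhibitors act on was not tested, and neither were differences between the families. Over all genes, the shares higher and lower were 15.0% and 17.7% at 12 h, 13.4% and 16.9% at 24 h, and 12.2% and 19.6% at 48 h. Of 161 protease genes, 33 were higher and 44 lower at 12 h, 27 higher and 45 lower at 24 h, and 28 higher and 48 lower at 48 h. Papain-like cysteine proteases had 10 of 16 genes higher and none lower at each of the 3 times, with medians of 1.60, 1.30 and 1.13 in log2(level + 1). Subtilisin-like proteases, a family of serine proteases, many of them secreted, had 8 of 53 higher and 18 lower at 12 h and 6 higher and 20 lower at 48 h. Aspartic proteases had 3 of 47 higher and 18 lower at 12 h and 5 higher and 19 lower at 48 h. Serine carboxypeptidases had 9 of 32 higher and 7 lower at 12 h and 4 higher and 9 lower at 48 h. The most different proteases were a cysteine proteinase (TR32451|c2_g2), at 0.0370, 75.9, 23.8 and 22.2, and an oryzain alpha chain hit (TR26928|c0_g2), at 0.603, 2.77, 58.7 and 96.2.

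Jasmonate signalling genes were measured in the same leaves. Of 36 such genes, 22 were higher and 2 lower at 12 h, 25 higher and 1 lower at 24 h, and 25 higher and none lower at 48 h. The shares of all genes were 15.0% higher and 17.7% lower at 12 h, 13.4% and 16.9% at 24 h, and 12.2% and 19.6% at 48 h. Most of those higher at 12 h were TIFY genes, 17 of 20, beside 4 of 6 hits to MYC2. Hits to Ninja, another name on this list, had 1 of 7 higher, and none of 3 COI1 hits was. The 6 hits to MYC2 had medians of 2.20, 2.40 and 2.48 in log2(level + 1), and TR24422|c0_g1 among them was at 14.1, 178, 231 and 252. In contrast, the MYC2 hit TR26617|c1_g2 was at 31.2, 30.6, 25.5 and 23.8, and TR62987|c0_g1 was at 1.19 at its highest. The repressor genes TIFY 9 (TR81360|c4_g2) and TIFY 5A (TR24440|c0_g2) were highest at 12 h, at 836 and 360, and lower at 48 h, at 325 and 103. TIFY 10A (TR47119|c4_g4) was at 9.70, 911, 1311 and 992.

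Other products that act against herbivores, polyphenol oxidase, threonine dehydratase and leucine aminopeptidase, were measured as well. Of 11 such genes that reached a level of 1, 7 were higher and none lower at 12 h and at 24 h. At 48 h, 8 were higher and none lower. Polyphenol oxidases had 4 of 4 higher and leucine aminopeptidases 2 of 3 at each of these times. Threonine dehydratases had 1 of 4 higher at 12 h and at 24 h and 2 of 4 at 48 h. Of all genes, 15.0%, 13.4% and 12.2% were higher at these times and 17.7%, 16.9% and 19.6% lower. The leucine aminopeptidase TR50768|c4_g1, which in tomato is made after wounding, was at 1.68, 715, 1145 and 1967. The polyphenol oxidase TR81983|c2_g2, which oxidises phenols in chewed leaf, was at 1.82, 737, 295 and 357.

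Likeness of pattern was measured as the Euclidean distance over the 3 differences from 0 h in log2(level + 1). The candidates were 12646 annotated genes that reached a level of 10, with the listed inhibitors left out. For the trypsin inhibitor and for the factor Xa inhibitor the nearest candidate was the leucine aminopeptidase TR50768|c4_g1, at distances of 2.61 and 2.37. Next to both came a benzoate carboxyl methyltransferase (TR13462|c1_g1), at 3.20 and 2.79, and a tryptophan synthase beta chain (TR21161|c85_g3), at 3.67 and 3.15. These distances are wide, and no other gene had differences from 0 h as large as these inhibitors at 48 h. The trypsin and factor Xa inhibitors were nearer to each other than to any of these candidates. Their differences from 0 h were 8.65, 10.31 and 11.52 for the trypsin inhibitor and 9.44, 9.71 and 11.19 for the factor Xa inhibitor.

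The amylase/subtilisin inhibitor had closer matches. They were a methanol O-anthraniloyltransferase (TR58625|c14_g3), a 2-oxoglutarate-dependent dioxygenase (TR82090|c0_g1) and a MYB5-type repressor (TR79485|c1_g2), at distances of 0.25, 0.30 and 0.37. The anthraniloyltransferase hit was at 17.6, 685, 2244 and 2326, beside 15.4, 656, 1742 and 2219 for the inhibitor.

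For the sporamin A hit TR45313|c4_g1 the nearest gene was a fatty acyl-CoA reductase (TR80732|c10_g3, distance 1.72), at 2.28, 2321, 1017 and 530. The tryptophan synthase (1.80) and the methyltransferase (1.89) followed. For TR45313|c4_g2 it was an isoleucine N-monooxygenase (TR74526|c7_g2, distance 1.45), at 0.466, 952, 329 and 190, followed by the reductase (1.73) and TIFY 9 (2.13). For the glutamyl endopeptidase inhibitor it was TIFY 9 (TR81360|c4_g2, distance 0.33), at 0.977, 836, 661 and 325. A vacuolar amino acid transporter (TR23495|c0_g1, 0.57) and an ABC transporter of the G family (TR67530|c1_g3, 0.69) came next.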

How the data were processed

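Poly(A)-enriched leaf RNA was sequenced as strand-specific libraries, per the labels' protocols. The deposited table gives 1 expression signal per assembled gene and time, averaged over the 3 replicates by the authors: tripled, 100% of them fall on steps of 0.001, with a tolerance of 2e-06. RSEM 1.2.19, Trimmomatic 0.33, FastQC 0.11.3 and CASAVA are listed, with no roles, per the submitters' processing notes. The sources used here do not give the scale of the signal, the assembler or the reference, and the depth is unknown. Names are the best Swiss-Prot hit (20219 genes) or else the TrEMBL hit (5133 genes). None of the assembled names is in the RefSeq name table, so no coordinates or sequences are given.

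With 1 mean per time, no p-value was computed. A gene was counted higher or lower where log2(level + 1) differed by 1 or more (2-fold), among genes that reached a level of 1 at any time. The rule was tested on simulated data. The genes, lists and rules were chosen with earlier results of these data known. Other genes, apart from those the text marks as chosen or named after their values were seen, were named by these rules: inhibitor names with a level of at least 10, MYC2 hits, the 3 TIFY genes with the largest difference at 12 h, the 2 most different proteases and the 2 most different anti-herbivore enzymes, and the 3 nearest annotated genes per inhibitor. Python 3.11.15, numpy 2.4.6 and pandas 2.3.3 were used. Alternatives were another pseudocount, 2 scalings, other filters, a 4-fold rule and components summed.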

Additional observations from a re-analysis of the deposited data

How the results depend on the processing

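All 69 recomputed differences of the 6 genes from 0 h stayed above 2-fold, between 5.17 and 13.3 on the log2 scale. The genes were chosen with such large differences known, so nothing is read from this. With components summed, listed genes of 1 component share 1 value, which is counted for each of them. Of 138 recomputed differences over all comparisons, 133 kept their side of 2-fold. With median-of-ratios scaling the glutamyl endopeptidase inhibitor TR52219|c0_g1 was at -0.92 at 48 h against 24 h and -0.95 against 12 h. That scaling moved the median of all genes from -0.10 to 0 at 48 h against 24 h and from -0.14 to 0 against 12 h. Setting the columns to the same sum moved that median from 0.06 to -0.06 at 12 h and from 0.01 to -0.10 at 24 h against 0 h. With the genes of 1 component summed, the value for TR83819|c4_g2 was 0.36 at 24 h against 12 h and 1.39 at 48 h against 24 h, and that for TR45313|c4_g2 was -0.94 at 48 h against 24 h, since the more abundant neighbour sets the sum. With a pseudocount of 0.1, 4704 genes were higher and 5226 lower at 24 h against 12 h, 1648 and 3113 at 48 h against 24 h, and 4433 higher at 48 h against 12 h. With a level of at least 10, fewer genes were compared. The numbers higher and lower were then 2523 and 2811 at 12 h, 2434 and 2404 at 24 h and 2180 and 2861 at 48 h against 0 h. They were 1977 and 1662 at 24 h against 12 h, 273 and 744 at 48 h against 24 h, and 1840 and 2525 at 48 h against 12 h. Over the inhibitor, protease, jasmonate signalling and anti-herbivore lists together, that filter left 33, 25 and 26 genes lower at 12, 24 and 48 h. The 4-fold rule left 49 higher and 22 lower at 12 h, 46 and 18 at 24 h, and 44 and 19 at 48 h. The 2-fold counts were 74 and 50, 73 and 48, and 74 and 50. These lists hold 23, 161, 36 and 11 genes that reached a level of 1, and 16, 77, 26 and 7 that reached 10. Over all genes, the share past 2-fold was 15.0% higher and 17.7% lower at 12 h. It was 13.4% and 16.9% at 24 h, and 12.2% and 19.6% at 48 h. The share of all genes past 4-fold was not computed. The lists include the 6 genes chosen by their levels, so nothing is read from these counts. Of 210 recomputed counts of genes, single lists included, 158 stayed within 1.5 times. These include 12 counts with no filter, which could not differ, since a gene always under 1 cannot reach 2-fold with the added 1. The higher filter and the 4-fold rule could only lower a count. No paired analysis was possible because the table holds 1 mean per time, and leaving out replicates was not run for the same reason.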

Other observations

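Lists of storage organs and of the epidermis were read beside the inhibitors, since sporamin and the cocoa protein are named for storage tissue. The 2 hits to seed storage globulins and their kin had a summed level of 13.9 at 0 h and then 15.4, 3.66 and 4.04 at 12, 24 and 48 h. Of 9 oleosin hits, the coat proteins of oil droplets, 5 were higher and 2 lower at 12 h, 7 were higher and none lower at 24 h, and 6 were higher and none lower at 48 h. The oleosin hit that was highest at 0 h, TR2658|c0_g1, was at 148, 33.2, 120 and 89.9. The oleosin 5 hits were at 0.146, 6.38, 107 and 72.3 (TR81973|c0_g1) and at 2.64, 0, 17.1 and 14.5 (TR24769|c0_g1). Of 26 patatin hits, which are lipases related to the potato tuber protein, 11 were higher and 4 lower at 12 h and 8 higher and 2 lower at 48 h. The patatin-like protein TR56836|c1_g2 was at 102, 2212, 5694 and 6215. Epidermis markers had 4 of 20 genes higher and 7 lower at 12 h and 3 higher and 7 lower at 48 h. Of all genes, 15.0% were higher and 17.7% lower at 12 h, 13.4% and 16.9% at 24 h, and 12.2% and 19.6% at 48 h. The single genes named here were chosen after their values were seen, and the part of these lists in the levels of the inhibitors was not tested.

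The component of the factor Xa and amylase/subtilisin inhibitors holds further assembled genes that lack an inhibitor name, of which 2 are given here, chosen after their values were seen. TR83819|c5_g3 was at 44.2, 49.3, 49.0 and 36.3 over the 4 times, and TR83819|c4_g6 at 13.1, 2.92, 5.93 and 4.53. Neither had the large differences of the inhibitors on that component. Of the jasmonate signalling genes, the 3 hits to the receptor subunit COI1 had medians of -0.75, -0.34 and -0.53 at 12, 24 and 48 h in log2(level + 1), with 1 lower by 2-fold at 12 h and none higher.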
